A study of Mus musculus with 6 samples.

Results

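Transcripts of 10 genes of the NF-kB pathway were examined in erythroblasts, which mature into red blood cells, from mouse fetal liver. The genes were taken by symbol from both deposited tables: the 5 NF-kB subunits Nfkb1, Nfkb2, Rel, Rela and Relb, the inhibitors Nfkbia, Nfkbib and Tnfaip3, the cytokine gene Tnf, and Tnfrsf13c, which encodes the BAFF receptor. All 10 were found among the 17691 genes of each table, and all 10 passed the filter on low counts that left 12283 genes to test. The CDs group held 3 libraries from C57BL/6J erythroblasts without the surface antigen TER119, cultured with erythropoietin (Epo) and exposed to carbon dots (CDs), nanometre-sized carbon particles made from the plant Codonopsis pilosula, at 1 ug/ml for 30 h. The untreated group held 3 libraries from the same kind of cells without CDs. Polyadenylated RNA was sequenced, and the comparison asks how transcript levels differ between CDs-treated and untreated cells.

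NF-kB is a family of dimeric transcription factors built from 5 subunits. In resting cells the dimers are held in the cytoplasm by IkB proteins, which are degraded when kinases of the IKK complex are activated, for example after TNF binds its receptor. The genes for IkB alpha and for the ubiquitin-editing enzyme A20 (Tnfaip3) are classical NF-kB targets and close negative feedback loops, while the BAFF receptor feeds the alternative branch of the pathway, in which the Nfkb2 precursor is processed and pairs with RelB. These factors are best known from immune cells, and macrophages of fetal liver express many of them.

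Libraries held between 17695997 and 20066581 expected counts. Libraries with the same number deviated together: their deviations from the group means correlated at 0.91, 0.34 and 0.94 for the numbers 1, 2 and 3. The labels do not say that the numbers pair the libraries, and they were taken to do so from these correlations. Deviations within a group sum to 0, so the 3 correlations depend on one another and do not establish the pairing. On the first principal component, which held 88.7% of the variance, the scores were -52.0, 14.9 and 95.7 in CDs 1, 2 and 3, and -87.1, -46.2 and 74.6 in untreated 1, 2 and 3, so that untreated 3 stood apart from the other untreated libraries and the CDs libraries were spread nearly evenly. Of 10 erythroid markers, 9 were in the tables and held 5.84% to 7.07% of counts in CDs libraries and 6.17% to 6.995% in untreated libraries, and none was at 0. Macrophage markers (18 genes) held 0.0407%, 0.172% and 0.627% of counts in CDs 1, 2 and 3, and 0.0176%, 0.0520% and 0.487% in untreated 1, 2 and 3. In bulk RNA, a change in the number of cells of a type and a change in RNA per cell cannot be told apart.

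The upstream sequences of 5 members are shown because they separate members that hold a binding motif for NF-kB close to the start from members that do not. They come from the RefSeq promoter table of GRCm38.p6, which held 8 of the 10 members (not Nfkb1 and Relb). Letters run 5′ to 3′ along the gene, capitals mark motif matches, and positions count back from the RefSeq start, with -1 as the base before it. The searched motifs were the kB consensus of 10 bases, which needs ambiguous letters, and the 9 letters GGANTTTCC, on both strands within 250 bases; the second was chosen after the sequences had been seen.
Nfkbia, chr12:55492648-55492847, minus strand: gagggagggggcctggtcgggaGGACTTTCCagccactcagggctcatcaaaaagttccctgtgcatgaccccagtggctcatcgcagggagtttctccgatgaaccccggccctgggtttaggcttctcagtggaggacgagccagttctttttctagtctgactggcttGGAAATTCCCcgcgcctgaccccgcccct
Tnfaip3, chr10:19015411-19015540, minus strand: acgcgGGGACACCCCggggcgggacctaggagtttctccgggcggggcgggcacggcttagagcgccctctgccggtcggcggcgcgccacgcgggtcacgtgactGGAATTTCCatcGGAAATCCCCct
Rel, chr11:23770971-23771099, minus strand: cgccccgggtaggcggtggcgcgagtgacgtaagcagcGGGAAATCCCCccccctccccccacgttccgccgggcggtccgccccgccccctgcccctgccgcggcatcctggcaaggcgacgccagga
Tnf, chr17:35202008-35202137, minus strand: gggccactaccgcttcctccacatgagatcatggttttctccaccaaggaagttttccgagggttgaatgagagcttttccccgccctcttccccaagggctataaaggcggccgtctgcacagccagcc
Tnfrsf13c, chr15:82224381-82224510, minus strand: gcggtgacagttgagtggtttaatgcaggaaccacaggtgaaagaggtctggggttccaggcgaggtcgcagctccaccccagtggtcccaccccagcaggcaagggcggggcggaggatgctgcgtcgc
The Nfkbia window held a GGANTTTCC match from -178 to -170 and a kB consensus from -29 to -20 that overlaps another GGANTTTCC match. The Tnfaip3 window held kB consensus matches from -125 to -116 and from -12 to -3 with a GGANTTTCC match from -24 to -16 between them. In Rel, 2 overlapping kB consensus matches on opposite strands spanned -92 to -82. Counted per promoter, 6 of the members' 11 entries held either motif (Nfkb2 has 3 entries, all with a match, and Rel, Nfkbia and Tnfaip3 have 1 each with a match), against 4.45% of 32851 promoters, and the Rela, Nfkbib, Tnf and Tnfrsf13c windows had no match. A match is a stretch of letters and not evidence of binding; no match says only that these letters are absent from the window.

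Across the members the CDs and untreated groups were separated in 2 genes: Tnf was higher in every CDs library than in any untreated library, and Tnfrsf13c was lower. Nfkb1 and Tnfrsf13c were lower in CDs than in the untreated library of the same number in all 3 pairs, and Nfkb2, Rel, Relb, Tnfaip3 and Tnf were higher in all 3. Groups did not overlap in 4.7% of all genes tested (2.37% with CDs above and 2.33% with CDs below), and 30.2% of genes were higher and 26.2% lower in all 3 pairs. Tested with edgeR (quasi-likelihood) and treatment alone, no member had an adjusted p under 0.05 (adjusted p 0.994 to 0.995) and 0.0% of all 12283 genes did. At an unadjusted p under 0.05 the same fit held 2 members (Tnf and Tnfrsf13c) and 1.03% of all genes. Without the replicate number as a block, DESeq2 called no member and 0.114% of genes; limma-voom called no member without it, nor with it, when it called 0.0488% of genes.

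With the replicate number as a block, DESeq2 called 3 members at an adjusted p under 0.05: Nfkb1 (0.0232) and Tnfrsf13c (0.00732) fell and Tnfaip3 (0.00621) rose. The same fit called 1210 genes, 11.4% of the 10616 genes with an adjusted p (8.98% higher and 2.42% lower in CDs) against 3 of the 9 members with an adjusted p; Tnf had none in that fit (unadjusted p 0.0355). edgeR with the block called no member and 0.0407% of genes, and 6 members had an unadjusted p under 0.05, against 29.9% of genes. In edgeR the median log2 fold change of the members was 0.18 without the block and 0.21 with it. Over all genes tested it was 0.01 in both fits. At an adjusted p under 0.10 edgeR with the block held 3 members (Nfkb1, Tnf and Tnfrsf13c, 0.0916 each) and 8.3% of all genes.

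**Figure D1:**
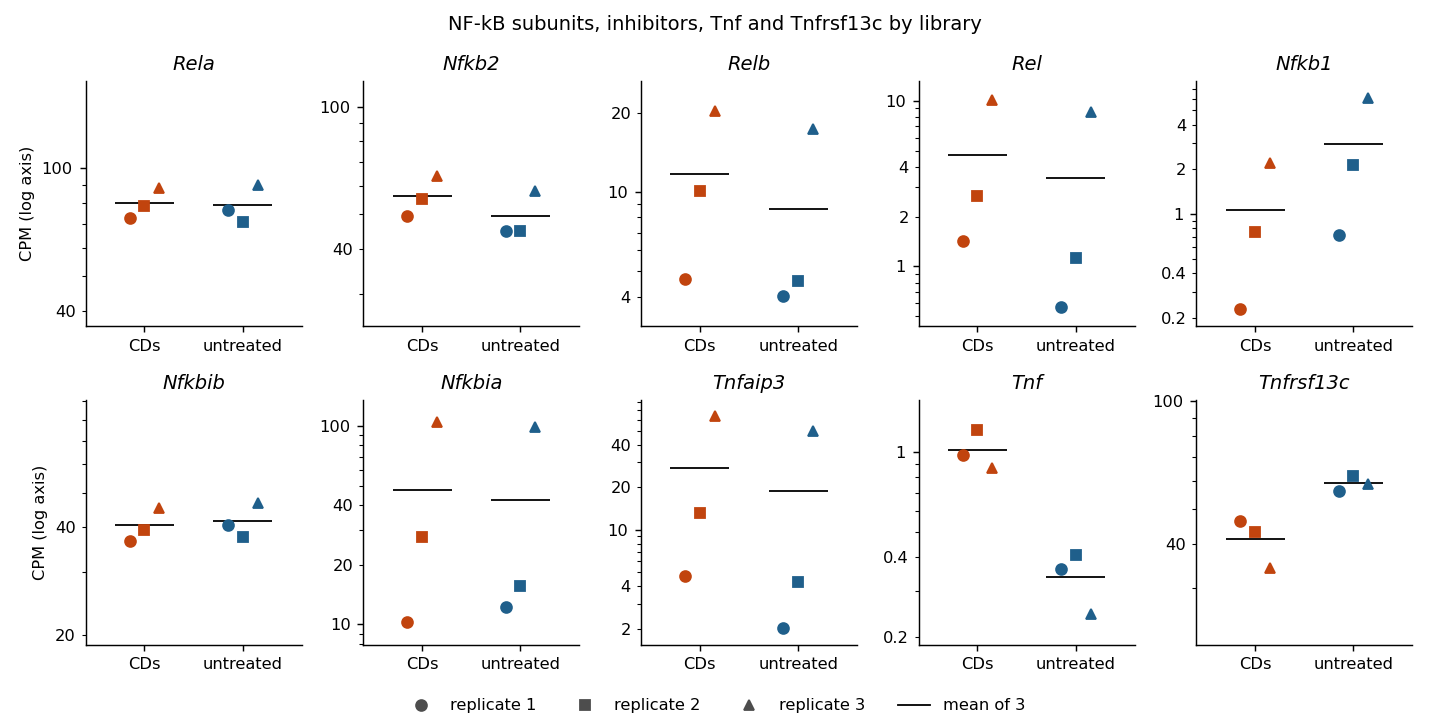
CPM (counts scaled to a common library size by TMM, log axis) of each member in the 3 CDs and 3 untreated libraries. Points are libraries, symbols mark the replicate number and lines the group mean; Tnf and Tnfrsf13c are the 2 genes whose groups do not overlap.

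Rela encodes p65, a subunit with a transcription activation domain and a partner in the most common NF-kB dimer, and lies on chromosome 19 from 5637442 to 5648134 (GRCm38.p6, RefSeq gene span, as for all spans given here). In counts per library scaled to a common size (CPM), it had 72.8, 78.7 and 88.3 CPM in CDs 1, 2 and 3, against 76.6, 70.7 and 90.0 CPM in untreated 1, 2 and 3. The groups overlapped and their means were 79.9 ± 7.82 CPM with CDs and 79.1 ± 9.91 CPM untreated (SD, n = 3 each). Its log2 fold change was 0.01 ± 0.14 (SE).

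Nfkb2 encodes p100, the precursor of p52 in the alternative branch, and lies on chromosome 19 from 46300994 to 46312400. It had 49.5, 55.0 and 64.0 CPM in CDs 1, 2 and 3, against 44.8, 44.9 and 58.2 CPM in untreated 1, 2 and 3. Each CDs library was above its untreated partner but CDs 1 and CDs 2 were below untreated 3, and the log2 fold change was 0.19 ± 0.17 (SE). Of its exonic bases, 11.6% overlap the antisense gene AC114539.1 and 6.52% overlap Psd on the opposite strand, and because the protocol names no step that keeps strand, reads from these stretches cannot be told apart.

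Relb encodes the partner of p52 and lies on chromosome 7 from 19606217 to 19629438. It had 4.69, 10.1 and 20.3 CPM in CDs 1, 2 and 3, against 4.03, 4.604 and 17.2 CPM in untreated 1, 2 and 3. The log2 differences within the pairs were 0.22, 1.14 and 0.23, and the fitted log2 fold change was 0.44 ± 0.79 (SE). CDs 3 and untreated 3 were the highest libraries of their groups, and the groups overlapped.

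Rel, the gene of c-Rel, a subunit best known from lymphocytes, lies on chromosome 11 from 23736847 to 23770969. It had 1.43, 2.67 and 10.1 CPM in CDs 1, 2 and 3, against 0.568, 1.13 and 8.502 CPM in untreated 1, 2 and 3. CDs 3 exceeded CDs 1 by 7.08-fold and untreated 3 exceeded untreated 1 by 14.96-fold within the groups, while the log2 fold change between the groups was 0.48 ± 1.23 (SE). The 2 overlapping kB consensus matches shown above stand upstream of this gene.

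Nfkb1 encodes p105, the precursor of p50, and lies on chromosome 3 from 135584655 to 135691969. It had 0.229, 0.755 and 2.22 CPM in CDs 1, 2 and 3, against 0.723, 2.15 and 6.06 CPM in untreated 1, 2 and 3, which came from 4, 15 and 46 expected counts with CDs and 14, 42 and 124 untreated. CDs libraries were at 0.316, 0.351 and 0.366 of the level of their untreated partners, while Rel, Relb and Tnfaip3 were higher with CDs in the same pairs. The log2 fold change was -1.47 ± 1.06 (SE) without the block and -1.49 ± 0.22 (SE) with it in edgeR. Among the 5 subunits Nfkb1 is the only one lower with CDs in all 3 pairs; 2 of the 3 CDs libraries rest on 15 counts or fewer.

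Compared per length in FPKM (fragments per kilobase of gene length, scaled to the library total), Rela held 50.7% to 61.6% of the summed level of the 5 subunits in CDs libraries and 52.3% to 65.1% in untreated libraries. Nfkb2 held 28.8% to 32.6% with CDs and 26.6% to 30.2% untreated. Nfkb1, which with Rela forms the classical dimer, held 0.258%, 0.739% and 1.71% in CDs 1, 2 and 3, against 0.685%, 2.10% and 4.88% in untreated 1, 2 and 3.

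Nfkbia encodes IkB alpha, which holds NF-kB dimers in the cytoplasm, and lies on chromosome 12 from 55489409 to 55492647. It had 10.3, 27.4 and 104.4 CPM in CDs 1, 2 and 3, against 12.2, 15.7 and 98.5 CPM in untreated 1, 2 and 3. CDs 3 and untreated 3 stood about equally high, the pairs differed in direction (log2 differences of -0.24, 0.80 and 0.08), and the log2 fold change was 0.17 ± 1.16 (SE). Within the groups CDs 3 exceeded CDs 1 by 10.1-fold and untreated 3 exceeded untreated 1 by 8.08-fold.

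Nfkbib encodes IkB beta, a second inhibitor of the same dimers, and lies on chromosome 7 from 28758251 to 28766644. It had 36.7, 39.4 and 45.4 CPM in CDs 1, 2 and 3, against 40.6, 37.7 and 46.7 CPM in untreated 1, 2 and 3. The groups overlapped, and the log2 fold change was -0.04 ± 0.14 (SE). Its exons overlap Ccer2 (14.5% of exonic bases, itself at 0 in 5 of 6 libraries) and Sirt2 (1.94%) on the opposite strand. In FPKM the ratio of Nfkbia to Nfkbib was 0.243, 0.604 and 2.02 in CDs 1, 2 and 3, against 0.260, 0.362 and 1.84 in untreated 1, 2 and 3, so that Nfkbia was the more abundant of the 2 inhibitors in CDs 3 and untreated 3 and the less abundant in the other 4 libraries.

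Tnfaip3 encodes A20, which removes and attaches ubiquitin chains on signalling proteins and limits IKK activation; it lies on chromosome 10 from 19000910 to 19015410. It had 4.69, 13.2 and 64.0 CPM in CDs 1, 2 and 3, against 2.01, 4.30 and 49.8 CPM in untreated 1, 2 and 3. Every CDs library was above its untreated partner, with log2 differences of 1.22, 1.62 and 0.36, but CDs 1 and CDs 2 were below untreated 3. The log2 fold change was 0.55 ± 1.48 (SE) without the block and 0.95 ± 0.29 (SE) with it in edgeR (adjusted p 0.132).

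Of the 10 members, 4 (Nfkb1, Rel, Nfkbia and Tnfaip3) differed at least 5-fold between the highest and the lowest library within both groups, as did 10.7% of all genes. Macrophage markers moved the same way: their summed CPM in CDs 3 was 15.4 times that in CDs 1, and in untreated 3 it was 27.7 times that in untreated 1. Neutrophil and monocyte markers differed 7.55-fold and 10.2-fold in the same comparisons, and the summed erythroid markers 0.852-fold and 0.882-fold. Hba-a1 and Hbb-bt made up most of the erythroid sum, and single erythroid markers differed from it. Klf1 had 693.5 CPM in CDs 1 and 285.2 CPM in CDs 3, against 735.0 CPM in untreated 1 and 388.2 CPM in untreated 3. Alas2 had 1758.4 and 1644.2 CPM in CDs 1 and 3, against 1698.7 and 1712.5 CPM in untreated 1 and 3. Of the 18 macrophage markers, 14 were tested. With the block, DESeq2 called 12 of them higher in CDs and 1 (Cd5l) lower, against 8.98% higher and 2.42% lower of all genes. In edgeR with the block none of them was called. Adgre1, the gene of the F4/80 antigen, had 32.7, 129.8 and 487.7 CPM in CDs 1, 2 and 3, against 9.61, 30.9 and 336.3 CPM in untreated 1, 2 and 3, while Vsig4 and Timd4 were at or below 0.289 CPM and Cd163 at or below 0.343 CPM in all 6 libraries. The share of counts in the list was 0.280% ± 0.307 with CDs and 0.185% ± 0.262 untreated (SD, n = 3 each; exact permutation test, two-sided, p = 0.6, where 0.1 is the smallest p possible). That test does not use the pairing; the share was higher in the CDs library of all 3 pairs. The part of these cells in the differences of Rel, Relb, Nfkbia, Tnfaip3 and Nfkb1 was not tested.

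**Figure D2:**
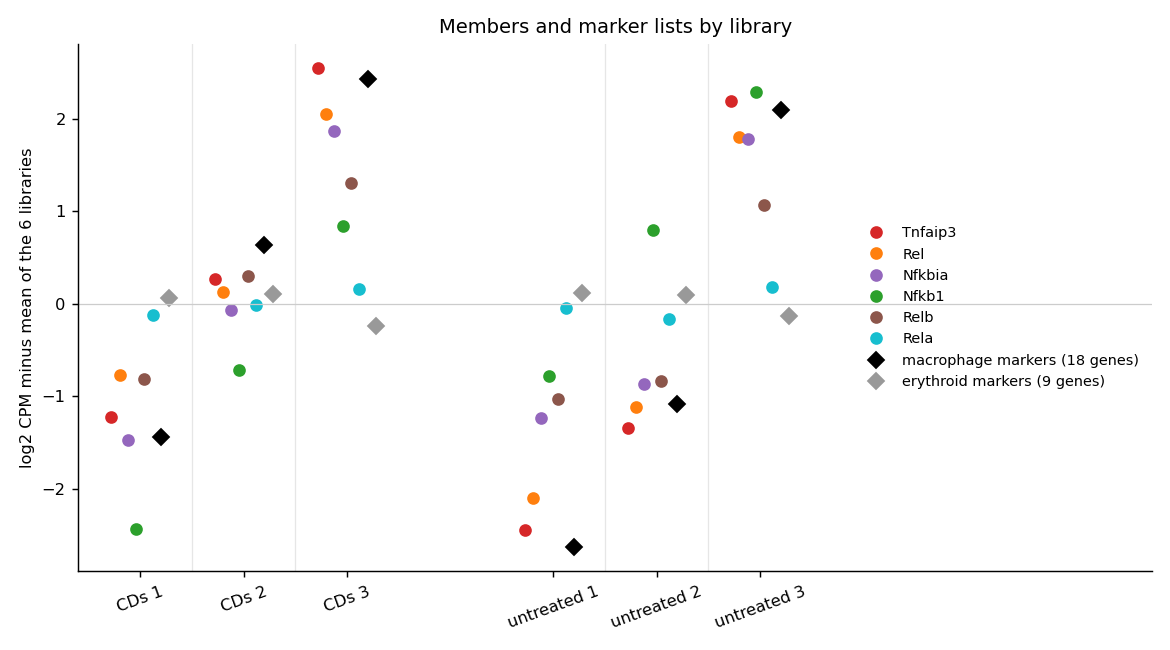
Deviation of log2 CPM from its mean over the 6 libraries, for 6 members (circles) and the summed macrophage and erythroid marker lists (diamonds), by library, CDs to the left. CDs 3 and untreated 3 are high in Tnfaip3, Rel, Nfkbia, Relb and macrophage markers, while Rela and the erythroid sum vary little. Hba-a1 and Hbb-bt make up most of that sum.

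Tnf, the gene of tumour necrosis factor, the ligand that triggers the classical pathway, lies on chromosome 17 from 35199367 to 35202007. It had 0.973, 1.21 and 0.868 CPM in CDs 1, 2 and 3, against 0.362, 0.409 and 0.244 CPM in untreated 1, 2 and 3. Each CDs library was above each untreated library, although these values came from only 17, 24 and 18 expected counts with CDs and 7, 8 and 5 untreated. Means were 1.02 ± 0.174 CPM with CDs and 0.338 ± 0.0849 CPM untreated (SD, n = 3 each), and the log2 fold change was 1.57 ± 0.32 (SE; edgeR quasi-likelihood, unadjusted p 0.0032, adjusted p 0.994).

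Tnf was not higher in the libraries that were high in macrophage markers: CDs 3 had 0.892 of the level of CDs 1 and untreated 3 had 0.675 of untreated 1. These ratios rest on 18 against 17 and 5 against 7 expected counts and are imprecise. The summed share of endothelial markers was also separated between the groups, at 0.0376% to 0.0486% of counts in CDs libraries and 0.0159% to 0.0226% in untreated libraries, and most of that share was Flt1 (473.1, 390.8 and 252.3 CPM in CDs 1, 2 and 3, against 157.7, 144.3 and 133.1 CPM in untreated 1, 2 and 3). Without Flt1 the other 9 markers summed to 19.3, 41.8 and 108.6 CPM in CDs 1, 2 and 3, against 10.95, 17.8 and 88.1 CPM in untreated 1, 2 and 3, and the groups overlapped. Of the 10 genes on the list, 7 were tested. DESeq2 with the block called 3 of them higher in CDs, against 8.98% of all genes, and edgeR with the block called none. Cdh5 was at most 3.91 CPM and Emcn at most 0.0482 CPM. Megakaryocyte markers overlapped between the groups in summed share, at 0.0120% to 0.0160% of counts with CDs and 0.0107% to 0.0122% untreated. Of 8 tested, 3 were higher in every CDs library than in any untreated library, as were 2 of the 7 tested endothelial genes, against 2.37% of all genes. On the megakaryocyte list 1 gene, Gp9, was lower in CDs in all 3 pairs. The part of these cell types in the Tnf difference was not tested. The length implied by the deposited tables for the Tnf row is longer than the annotated gene, as given below with the lengths, so which sequence the row counts is not known, and its counts, CPM and separation between the groups carry that limit.

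Tnfrsf13c, the receptor for the B cell survival factor BAFF, lies on chromosome 15 from 82221742 to 82224380. It had 46.3, 43.2 and 34.3 CPM in CDs 1, 2 and 3, against 56.2, 61.7 and 58.9 CPM in untreated 1, 2 and 3. Each CDs library was below each untreated library, and the log2 differences within the pairs were -0.28, -0.52 and -0.78. Means were 41.2 ± 6.23 CPM with CDs and 58.9 ± 2.74 CPM untreated (SD, n = 3 each), and the log2 fold change was -0.52 ± 0.15 (SE; edgeR, unadjusted p 0.0138, adjusted p 0.994). The BAFF receptor is best known as a B cell protein. Of 14 B cell markers, 4 were tested. All 14 summed to 63.1, 66.9 and 95.2 CPM in CDs 1, 2 and 3, against 59.2, 61.7 and 83.1 CPM in untreated 1, 2 and 3. That sum was below Tnfrsf13c in no library. Most of it was Cd79b, whose implied length exceeds its gene span (60.5, 59.2 and 75.5 CPM with CDs, 57.6, 58.3 and 70.5 CPM untreated). Without Cd79b the other 13 summed to 2.52, 7.70 and 19.7 CPM in CDs 1, 2 and 3, against 1.602, 3.38 and 12.6 CPM in untreated 1, 2 and 3, below Tnfrsf13c in every library. The B cell genes were highest in CDs 3 and untreated 3, where Tnfrsf13c was not.

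**Figure D3:**
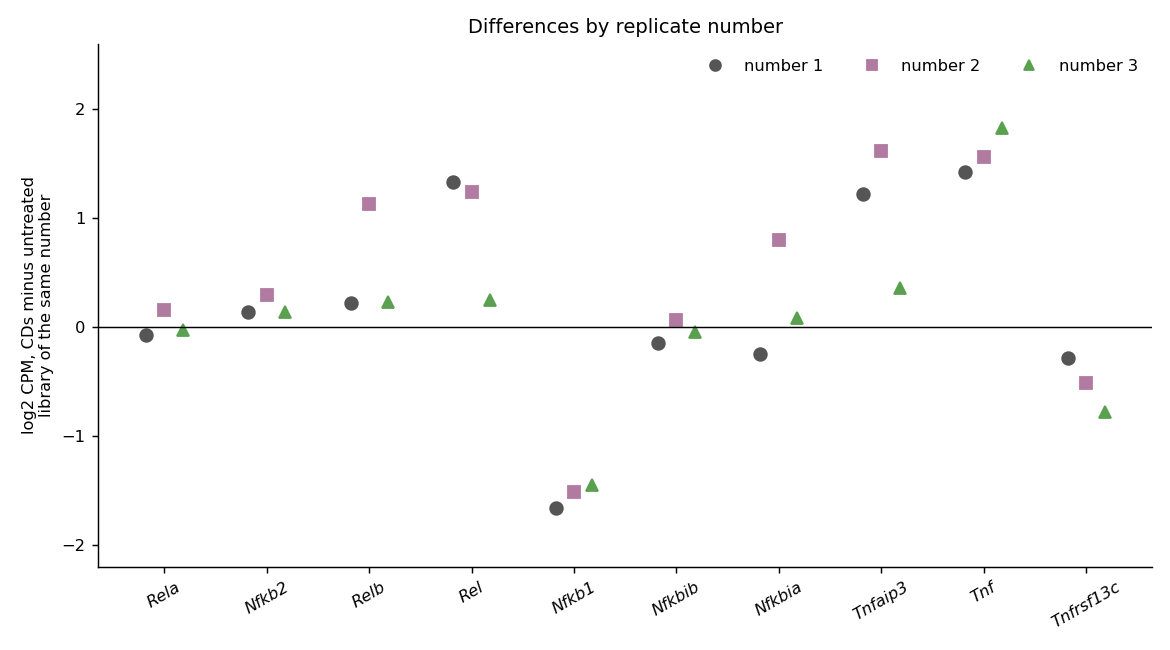
log2 CPM difference between the CDs library and the untreated library of the same number, for each member, with numbers 1 to 3 as separate symbols. Nfkb1 and Tnfrsf13c lie below 0 at every number, Rela and Nfkbib lie near 0, and Tnf, Nfkb2, Relb, Rel and Tnfaip3 are above 0 at all 3.

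Ordered by mean FPKM over the 6 libraries, Rela was highest at 31.6, followed by Nfkbib (29.9), Nfkbia (28.9), Tnfrsf13c (26.0), Nfkb2 (16.3), Tnfaip3 (5.28), Relb (4.65), Rel (1.59), Nfkb1 (1.06) and Tnf (0.14). The ranges of all neighbours in that order overlapped over the 6 libraries. Rela lay above Nfkbib in all 6 libraries and Relb above Rel in all 6, while Nfkbia lay above Tnfrsf13c in 2 of 6. Of all genes tested, 79.2% had a lower mean FPKM than Rela.

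Counts and FPKM were compared for each member. For every gene, count over FPKM and library total gives an implied gene length, which should be the same in all libraries if both tables use 1 length. Over 9103 genes with more than 1 FPKM in every library, the root mean square deviation of its log2 around the gene's mean had a median of 0.00539 and a 95th percentile of 0.0591. Among members it was 0.0011 for Nfkbia, 0.0391 for Relb and 0.133 for Nfkb1, and it was at most 0.0109 for the other members except Tnf (0.033). FPKM is given to 2 decimals, and rounding alone allows 0.0271 for Nfkb1 and 0.0816 for Tnf. Nfkb1 differed by more than rounding, and Tnf did not. The deviation also exceeded rounding in every other member except Rel (0.00531, where rounding allows 0.0167), for example in Relb (0.0391 against 0.00271). Tnf was the only member whose values allow 1 length in every library within rounding. Nfkb1 is not among those 9103 genes; of 1517 genes at a like FPKM, 84.3% had a smaller deviation, and 89.9% had a smaller deviation relative to rounding. The implied lengths of Nfkb1 were 1884, 1876 and 1879 bases in CDs 1, 2 and 3, against 2267, 2270 and 1834 bases in untreated 1, 2 and 3. Nfkb1 FPKM was 0.387, 0.430 and 0.365 of the untreated partner at the numbers 1, 2 and 3, so its direction held in both tables.

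**Figure D4:**
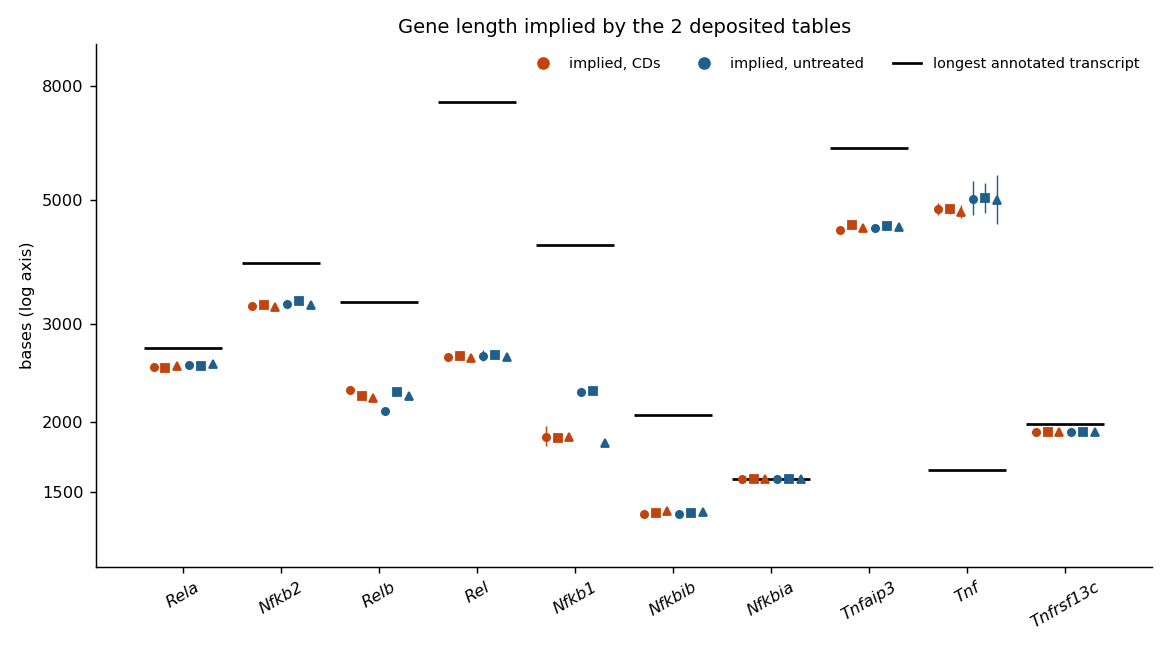
Gene length in bases (log axis) implied by count, FPKM and library total for each member and library, with bars for the rounding of FPKM and a black line for the longest annotated transcript of each member. Nfkb1 is longer in untreated 1 and untreated 2 than in the other 4 libraries, and Tnf lies above its longest transcript.

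For Tnf the implied length was 4893 bases (median over libraries), 2.99 times the longest annotated transcript of 1639 bases and longer than the gene span of 2641 bases. Only 45 of 15389 genes (0.292%) exceeded their span by more than 1.1-fold, and Tnf was the only member among them, which bears on its counts as well as on its FPKM level. The implied length of Rel was 2621 bases, 0.351 of its annotated transcript of 7466 bases, and that of Nfkb1 was 0.453 of its longest transcript, so that the FPKM levels of Tnf, Rel and Nfkb1, and their places in the order by FPKM, depend on the lengths used.

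The other genes of the pathway were set in 7 lists by role, 94 genes in all, of which 93 were in the tables and 86 were tested. In the edgeR fit without the block, 74 of the 86 (86.0%) had a log2 fold change above 0, against 51.9% of all genes, and none was called in edgeR with or without the block. Their median log2 fold change was 0.25, against 0.01 for all genes. With the block, DESeq2 called 23 of 82 higher in CDs (28.0%, against 8.98% of all genes) and none lower (against 2.42% of all genes). Of these 23 genes, 19 (82.6%) differed at least 5-fold between libraries in both groups, against 52.0% of all genes called in that fit. That range was reached by 41 of the 86 pathway genes (47.7%), against 10.7% of all genes. None of the 86 is on the macrophage marker list, which does not say whether macrophages express them. The 7 genes that did not pass the filter on low counts were Tnfsf13, Tnfrsf17, Cd40, Lta, Tnfsf11, Cxcl1 and Nos2.

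Unless stated otherwise, log2 fold changes of the genes named below are from edgeR without the block, while calls are from DESeq2 with it. Among the IkB family beyond the members, 5 of 6 lay above 0 and 2 were called in DESeq2 with the block (Nfkbiz and Nfkbid). Nfkbiz, an atypical IkB that acts in the nucleus, had 4.23, 13.7 and 46.0 CPM in CDs 1, 2 and 3, against 2.53, 6.09 and 31.2 CPM in untreated 1, 2 and 3. Nkiras2, which binds IkB proteins, had the highest mean level of the list and a log2 fold change of 0.18 ± 0.35 (SE); that of Nfkbid was 0.50 ± 1.16 and that of Bcl3, a nuclear IkB, 0.46 ± 1.25. Among IKK and upstream kinases 10 of 13 lay above 0 and 2 were called, among them Map3k8, a kinase upstream of ERK and NF-kB. Map3k8 had a log2 fold change of 0.82 ± 1.38 (SE). Tab1, a partner of the kinase TAK1, was not called and was at -0.28 ± 0.15 (SE). Ripk1, a kinase at the TNF receptor, was at 0.24 ± 0.31 and Tab3 at -0.09 ± 0.20. Tab2, the gene with the highest mean level in this list, was 190.3 ± 15.4 CPM with CDs and 185.9 ± 13.3 CPM untreated (SD, n = 3 each).

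Among TNF receptors and adaptors 9 of 11 lay above 0 and 2 were called. They were Tnfrsf1a and Tnfrsf1b, the receptors for TNF. Xiap and Birc3, genes of the inhibitor of apoptosis family, had log2 fold changes of 0.16 ± 0.18 and 0.39 ± 1.13 (SE). Tnfrsf1b had 19.5, 77.1 and 293.8 CPM in CDs 1, 2 and 3, against 9.87, 26.5 and 249.7 CPM in untreated 1, 2 and 3. In the BAFF, CD40 and lymphotoxin list 5 of the 11 genes were tested and all 5 lay above 0, with 3 called (Ltbr, Tnfrsf11a and Tnfrsf13b); Tnfrsf13b, which encodes the receptor TACI, had 3.83, 15.04 and 39.1 CPM in CDs 1, 2 and 3, against 1.65, 5.58 and 28.1 CPM in untreated 1, 2 and 3, the opposite direction to Tnfrsf13c in every pair. Of the ubiquitin editing and A20 partner genes 10 of 12 lay above 0 and Tnip3 was called, while Rbck1, a subunit of the linear ubiquitin ligase, had a log2 fold change of -0.18 ± 0.13 (SE). Tax1bp1, an adaptor of A20, was at 0.04 ± 0.15 and Tnip2 at 0.43 ± 0.41.

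Of 13 genes of Toll-like and interleukin 1 receptor input, 11 lay above 0 and 5 were called; Tlr7, a sensor of RNA, had 9.90, 29.6 and 127.9 CPM in CDs 1, 2 and 3, against 3.15, 6.34 and 78.6 CPM in untreated 1, 2 and 3. Tlr4, the receptor for lipopolysaccharide, was called, and so was the kinase gene Irak4. Their log2 fold changes were 0.86 ± 1.36 and 0.63 ± 0.71 (SE) in edgeR without the block. In edgeR with the block they were 1.27 ± 0.32 and 0.67 ± 0.13 (SE). The 2 genes with the highest mean level, Irak1 and Myd88, were at 0.04 ± 0.12 and 0.28 ± 0.57 without it. Among textbook target genes 24 of 26 lay above 0 and 8 were called. Cd44, the hyaluronan receptor, averaged 227.4 ± 139.3 CPM with CDs and 165.5 ± 111.8 CPM untreated, and the chemokine gene Cxcl2 had a log2 fold change of 1.38 ± 1.54 (SE). Junb, a subunit of the factor AP-1, was at 0.39 ± 0.38 and Cflar, an inhibitor of caspase activation, at 0.48 ± 0.69. The part of the macrophage markers in these counts was not tested.

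**Figure D5:**
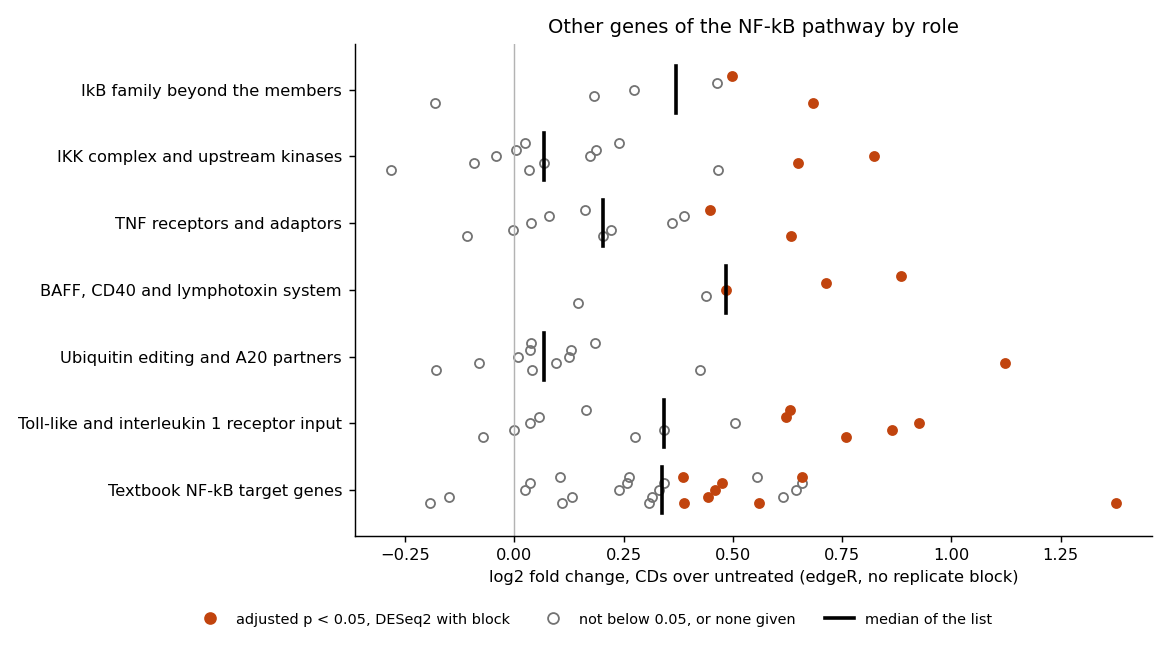
log2 fold change (CDs over untreated, edgeR without block) of the 86 tested pathway genes by role; filled points have an adjusted p under 0.05 in DESeq2 with the block, and black bars are list medians. The medians of all 7 lists lie above 0, and filled points, 23 in all, lie only on the right.

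By the root mean square difference of centred log2 CPM over the 6 libraries, the genes most like Nfkbia among 9299 genes were the class I histocompatibility genes H2-T23 (0.0929) and H2-D1 (0.135) and the gene Cd200r4 (0.123). For Rela they were Yipf5 (0.0260), Kat2a (0.0278) and Prrc1 (0.0294). For Tnf they were Elovl6, a fatty acid elongase gene (0.225), Flt1, a VEGF receptor gene (0.262), and Il6ra, an interleukin 6 receptor gene (0.306), and for Tnfrsf13c they were Bnip1 (0.0927), Rnf145 (0.105) and Fbxl15 (0.126). The Tnf list is less close than the others, and its values rest on counts of 24 or fewer per library.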

How the data were processed

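Messenger RNA of 6 libraries was read from one end over 50 bases, per the labels' protocols. Per the submitters' processing notes, the tools were RSEM 1.2.12, HISAT2 2.0.4, DESeq2 1.4.5 and Bowtie2 2.2.5 on GRCm38.p6; their roles are not given. The authors deposited expected counts, 30.1% of them not whole and rounded here before testing, for 17691 genes. The authors also deposited FPKM values, counts scaled by gene length and library total, as the values themselves show. Of the genes, 17570 (99.3%) were matched to RefSeq by Entrez number. FPKM served for levels per length, and for limma on log2(FPKM + 0.1) as an alternative.

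After filterByExpr (12283 genes, 99.9% of counts) and TMM scaling, edgeR 4.0.16 (R 4.3.3) gave two-sided quasi-likelihood tests of treatment alone. Their p-values were adjusted by Benjamini-Hochberg over every gene. Each SE from edgeR was derived as the absolute log2 fold change over the square root of the quasi-likelihood F statistic. DESeq2 1.42.0, limma 3.58.1 and fits with the replicate number as a block were alternatives. Same-numbered libraries deviated together (correlations 0.91, 0.34 and 0.94, all above 0.1), so the numbers were taken to pair them. This pairing is not stated in the labels. The labels do not say that replicates were separate cultures, so p-values measure the spread between these libraries, which may be technical. The members and all lists were chosen with earlier results of these data known. All members are described; each pathway list names the 2 genes with the highest mean CPM, any gene called without the block and up to 3 genes with the smallest p in edgeR with the block. Likeness was computed for 4 members over genes with a mean of at least 5 CPM and no predicted or clone name. The scripts were tested on simulated counts.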

Additional observations from a re-analysis of the deposited data

How the results depend on the processing

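With the replicate block, the number of genes called moved to 5 in edgeR, 6 in limma-voom and 1210 in DESeq2, against 0 in edgeR without it; DESeq2 without the block called 14. In the same DESeq2 fit with the block 3 members and 23 pathway genes were called, against 0 of each. Leaving out libraries gave 0 to 1835 genes, 0 to 5 members and 0 to 39 pathway genes called. The high ends came from the blocked fit without number 3 (1835, 5 and 39), and without number 2 it called 899, 2 and 9; these blocked fits were chosen after seeing the data. The Rela log2 fold change, 0.01, was -0.0020 in DESeq2 without the block and -0.0021 with RLE factors. When libraries were left out, the log2 fold change ran from -0.73 to 2.48 for Rel, -0.0737 to 0.12 for Rela, -0.22 to 1.43 for Relb, -1.16 to 1.76 for Nfkbia, -0.13 to 0.0488 for Nfkbib and -1.06 to 3.11 for Tnfaip3, and these changed sign. Among them, without number 2 Rela was at -0.0708 (-0.0737 with the block) and Nfkbia with the block at -0.0544, and without number 1 Nfkbib with the block was at 0.0075. It kept its sign for Nfkb1 (-2.57 to -0.42), Nfkb2 (0.08 to 0.32), Tnf (1.38 to 1.72) and Tnfrsf13c (-0.65 to -0.40). The difference in macrophage marker share ran from -0.0790 (without CDs 3) to 0.245 percentage points. Of the alternatives for single members, 181 kept direction and call, 19 changed sign and 10 passed the threshold where the edgeR fit without the block did not. The causes were not tested. Low counts limit Tnf and Nfkb1.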
